A study of Mus musculus with 4 samples.

Results

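Expression of angiogenic growth factors was compared between sorted marrow cells of an osteoblast gate, taken from adult mice of the strain NOD.CB17-Prkdc scid/J (NOD/SCID), which lack mature B and T cells. The 10 genes are the VEGF family ligands Vegfa, Vegfb, Vegfc and Pgf, the angiopoietin Angpt2, the angiopoietin-like gene Angptl4, the platelet-derived growth factor gene Pdgfa, hepatocyte growth factor (Hgf), and the guidance ligands Slit2 and Slit3. They were chosen by name, as the probe sets of a mouse expression array annotated to exactly 1 of these genes. All 10 were measured, by 20 of 45037 probe sets, among 18193 genes in all. The sort kept Lin- CD45- CD31- Sca1- CD51+ cells, so it was aimed at osteoblasts and against blood cells and CD31+ endothelium. Cells came from the trabecular bone area (2 arrays) or from the long bone area (2 arrays), with the same strain, sort and lack of any further treatment in the labels for both areas. The series text calls the mice recipients, and what they received is not given in the sources used here. Replicates are described as biological, without saying which mice or pools they came from, so p-values measure the spread between these samples, which may be technical.

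Blood vessels grow toward cells that secrete VEGF ligands, which act on the endothelial receptors Flt1, Kdr and Flt4 with the co-receptors Nrp1 and Nrp2. Vegfa drives sprouting and is induced by low oxygen, Vegfc drives growth of lymphatic and some blood vessels through Flt4, and Vegfb and Pgf bind Flt1. Angpt2 competes with Angpt1 at the receptor Tek, Pdgfa acts on Pdgfra of stromal cells, Hgf acts on Met, and SLIT proteins act on ROBO receptors. In bone, vessel growth and bone formation are coupled, and osteoblast-lineage and stromal cells are known sources of several of these ligands.

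Promoter sequences are given for Vegfc, Pdgfa and Slit2, which stood highest on the same array, and for Vegfa, which did not. They come from RefSeq (build GRCm38.p6), where 8 of the 10 genes matched, and each runs from 250 bases before to 50 bases after the most upstream start. Capitals mark matches, on either strand, to the GC box (GGGCGG), the EBF core (CCCNNGGG) and the TATA box (TATAAA). Other motifs searched are not in capitals. In the Vegfa promoter an EBF core and a GC box overlap.

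Vegfc promoter, chr8:54077282-54077581, plus strand: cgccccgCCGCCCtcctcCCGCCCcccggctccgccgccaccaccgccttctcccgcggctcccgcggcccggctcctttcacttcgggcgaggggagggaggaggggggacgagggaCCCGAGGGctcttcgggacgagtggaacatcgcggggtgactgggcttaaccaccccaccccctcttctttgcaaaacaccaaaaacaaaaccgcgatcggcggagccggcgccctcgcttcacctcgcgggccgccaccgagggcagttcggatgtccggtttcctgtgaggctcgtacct

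Pdgfa promoter, chr5:138994895-138995194, minus strand: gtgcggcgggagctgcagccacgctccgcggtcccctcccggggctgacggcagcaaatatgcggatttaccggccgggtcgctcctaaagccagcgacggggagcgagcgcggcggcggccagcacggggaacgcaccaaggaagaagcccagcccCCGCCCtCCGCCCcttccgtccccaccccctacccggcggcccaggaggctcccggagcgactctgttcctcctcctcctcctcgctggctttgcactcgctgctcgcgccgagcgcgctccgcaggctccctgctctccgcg

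Slit2 promoter, chr5:47982905-47983204, plus strand: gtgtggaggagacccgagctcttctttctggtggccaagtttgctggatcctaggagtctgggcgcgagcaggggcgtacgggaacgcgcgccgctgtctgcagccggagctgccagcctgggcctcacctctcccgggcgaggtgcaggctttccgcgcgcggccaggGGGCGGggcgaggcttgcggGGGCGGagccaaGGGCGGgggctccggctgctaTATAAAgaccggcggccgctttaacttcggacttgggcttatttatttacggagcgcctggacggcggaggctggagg

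Vegfa promoter, chr17:46032328-46032627, minus strand: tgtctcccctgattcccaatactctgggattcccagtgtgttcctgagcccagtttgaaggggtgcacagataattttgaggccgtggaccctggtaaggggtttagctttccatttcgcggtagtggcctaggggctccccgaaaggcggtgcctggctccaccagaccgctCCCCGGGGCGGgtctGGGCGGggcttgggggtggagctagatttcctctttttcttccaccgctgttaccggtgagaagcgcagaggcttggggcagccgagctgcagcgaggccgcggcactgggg

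The 12 windows of the 8 matched genes had a GC content of 51.3% to 78.3%, against a median of 52.7% over all 32851 windows in the table. The GC box was present in 9 of the 12 windows, against 35.7% of all windows, and the EBF core in 6 of 12, against 13.7%. Both motifs are made of G and C alone apart from the free bases of the EBF core. The windows lay above the median GC content, except those of Hgf at 51.3%. The part of base composition in these shares was not tested. The hypoxia-inducible factor core (ACGTG) was present in 1 window, at the second start of Vegfa, against 19.6% of all windows. The nuclear receptor half-site (AGGTCA) was present in 1 window, that of Vegfb, against 16.3%, and the TATA box in 1, that of Slit2, against 13.6%. The CCAAT box (CCAAT), whose first letters can be shared with a GC box, was present in 3 windows, against 37.4%. These matches describe the letters of the windows only.

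Each deposited value is a log2 difference from the median of the 4 arrays for that probe set, and no level was kept. For a probe set, the 2 middle arrays are equal in size and opposite in sign by this centring. The number steps of the deposited values keep a coarse trace of level: 2 of the 20 probe sets (1 of Vegfa, 1 of Slit2) had the step of a log2 level of 8 and above, 16 that of 4 to 8, and 2 (1 of Vegfc, 1 of Angptl4) that of 2 to 4. Over all probe sets whose step was read these shares were 33.7%, 62.4% and 3.87%. Long bone array 2 differed most from the others, with a log2 SD over all probe sets of 0.483, against 0.271 to 0.311. For the Gapdh control, a gauge of intact RNA, the 5' end minus the 3' end was -1.16 there, against -0.09 to 0.31 elsewhere. The same quantity for the Actb control did not set that array apart, at -0.04 there, against -0.07 to 0.44 elsewhere. The 18 probe sets of the hybridisation controls, bacterial and phage transcripts spiked into every sample with several probe sets each, separated the areas in 18 cases, all lower in the trabecular samples, with a median difference of -0.49. For 5 of the 10 growth factors the difference was smaller in size than that, and the part of the array scaling in them was not tested. Each long bone array is given separately, and the number of arrays limits the precision of every value. In such bulk samples a difference in the number of cells of a type and a difference in RNA per cell cannot be told apart.

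Of the 10 growth factors, 6 were lower and 4 higher in the trabecular than in the long bone area, beside 45.4% lower over all genes. Their median log2 difference was -0.37, beside 0.03 over all genes. Over genes read by probe sets with the step of 8 and above alone that median was 0.21, and 2 of the 20 probe sets here had that step. The part of level in the difference was not tested. Vegfc (-1.78) and Angptl4 (-1.06) had the largest differences of the 10, and on long bone array 2 alone did either stand above 0.5. Slit2, Pdgfa, Angpt2 and Angptl4 were lower in both trabecular samples than in both long bone samples, and Vegfa and Hgf were higher in both. None passed the test: with limma, adjusted p over all genes lay between 0.256 and 0.886. No gene and no probe set of the whole array was called either (0% of genes and 0% of probe sets). Before adjustment 1 of the 10 had a p under 0.05 (Slit2), against 15.5% of all genes. With 2 arrays per area the smallest two-sided exact permutation p is 0.333.

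For 4 of the 10 genes (Angpt2, Angptl4, Pdgfa and Slit2) the trabecular samples were lower without overlap, against 21.4% of all genes. For 2 (Vegfa and Hgf) they were higher without overlap, against 29.9% of all genes, a share below that background. Per probe set, 7 of 20 were lower with no overlap and 3 of 20 higher, against 26.2% and 25.9% of all probe sets. Long bone array 2 held the highest value for 7 of the 10 genes, against 35.2% of all genes. On that array 2 of the 10, Vegfc and Angptl4, lay at least 1 log2 unit above the median of the arrays, as did 1.69% of all genes.

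**Figure D1:**
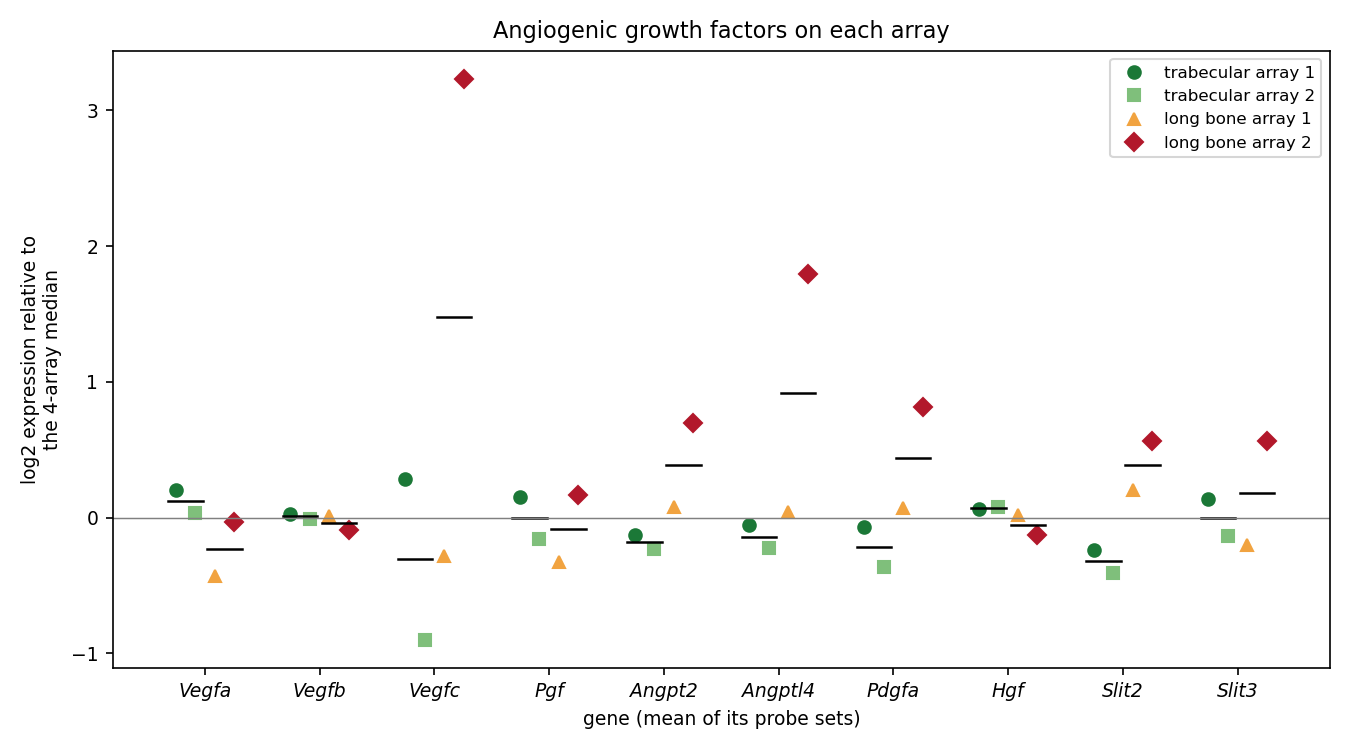
Log2 expression of each gene relative to the median of the 4 arrays, as the mean of its probe sets. Symbols are single arrays and black bars the mean of the 2 arrays of an area; long bone array 2 is highest for 7 of the 10 genes, by the widest margin for Vegfc.

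Among the VEGF ligands, Vegfc had the widest spread. Its log2 value was 0.28 and -0.90 on trabecular arrays 1 and 2, against -0.28 and 3.23 on long bone arrays 1 and 2. Only long bone array 2 was high, and the areas overlapped. Trabecular arrays averaged -0.31 ± 0.84 and long bone arrays 1.47 ± 2.49 (SD, n = 2 each), and limma gave a difference of -1.78 with a 95% interval of -5.08 to 1.52 and an adjusted p of 0.518. Against long bone array 1 alone the trabecular mean differed by -0.02, and against long bone array 2 alone by -3.54, an 11.6-fold higher value on that array. By its value there Vegfc ranked number 8 among all 18193 genes.

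All 3 Vegfc probe sets showed this profile. On long bone array 2 they stood at 2.91 (1419417_at), 4.20 (1439766_x_at) and 2.58 (1440739_at), and no other array was above 0.45 for any of them. The _x_ in a probe set name marks probes that can also bind other transcripts, and the 2 probe sets without it gave the same order of arrays. Trabecular array 2 was the lowest for all 3, at -1.16, -1.25 and -0.29.

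Vegfa went the other way. It stood at 0.21 and 0.03 on trabecular arrays 1 and 2, against -0.43 and -0.03 on long bone arrays 1 and 2. Both trabecular samples were above both long bone samples, and the low one was long bone array 1. The difference was 0.35 (95% interval -0.14 to 0.84, limma adjusted p = 0.417). It was 0.55 against long bone array 1 alone and 0.15 against long bone array 2 alone.

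The 2 Vegfa probe sets differed in how clear this was. For 1451959_a_at the trabecular values were 0.33 and 0.13, against -0.49 and -0.13 in the long bone area, a difference of 0.53. For 1420909_at, the one with the step of a level of 8 and above, they were 0.08 and -0.06, against -0.37 and 0.06, with overlap and a difference of 0.17. On the second, long bone array 2 lay between the trabecular samples.

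Vegfb, which binds Flt1 and is linked to fatty acid use in heart and muscle, was nearly flat. Its values were 0.03 and -0.01 on the trabecular arrays, against 0.01 and -0.09 on the long bone arrays, and the areas overlapped. The 4 arrays spanned 0.12, the narrowest range of the 10 genes, and the 95% interval of the difference was -0.28 to 0.37.

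Pgf, the placental ligand of Flt1, also overlapped. It stood at 0.16 and -0.16 on the trabecular arrays, against -0.33 and 0.17 on the long bone arrays. The trabecular mean was 0.33 above long bone array 1 and, at -0.17, below long bone array 2, so the sign of the difference (0.08, 95% interval -0.52 to 0.68) depended on the array.

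The remaining VEGF ligand, Vegfd, was not among the 10 and was read by 3 probe sets. It stood at -0.50 and -0.38 on the trabecular arrays, against 0.27 and 1.76 on the long bone arrays, a difference of -1.46 with no overlap (limma adjusted p = 0.307). Both ligands of Flt4, Vegfc and Vegfd, were thus highest on long bone array 2, and Vegfd was also lower in the trabecular area than on long bone array 1, by -0.71.

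**Figure D2:**
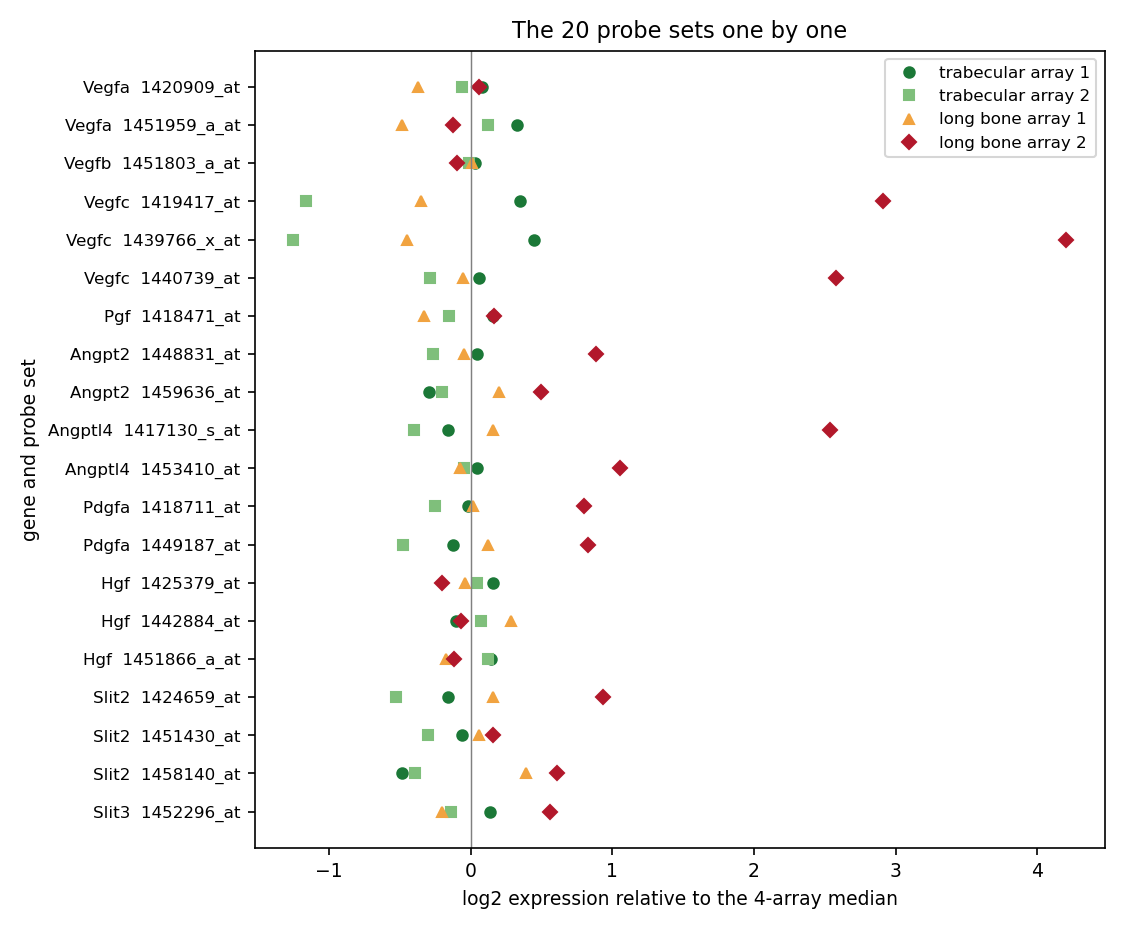
Log2 expression of each of the 20 probe sets relative to the median of the 4 arrays. Each symbol is 1 array; on long bone array 2 the 3 Vegfc probe sets stand between 2.58 and 4.20 and the Angptl4 probe sets at 2.53 and 1.06.

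Angpt2, which destabilises vessels together with VEGF, stood at -0.12 and -0.23 on trabecular arrays 1 and 2, against 0.08 and 0.69 on long bone arrays 1 and 2. Both trabecular samples were lower, and long bone array 2 was the high one. The difference was -0.56 (95% interval -1.20 to 0.07, limma adjusted p = 0.355), -0.25 against long bone array 1 alone and -0.87 against long bone array 2 alone. Of its probe sets, 1459636_at had no overlap (-0.60), while 1448831_at had trabecular array 1 above long bone array 1 (0.05 against -0.05).

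Angptl4, a secreted inhibitor of lipoprotein lipase that also acts on vessel permeability, resembles the angiopoietins in structure but does not bind Tek. It stood at -0.06 and -0.22 on the trabecular arrays, against 0.04 and 1.80 on the long bone arrays. The value on long bone array 2 was 1.75 above the next highest array. The difference was -1.06 (95% interval -2.65 to 0.53, limma adjusted p = 0.442), or a 2.08-fold lower mean in the trabecular area. Against long bone array 1 alone it was -0.18, and against long bone array 2 alone -1.93, a 3.82-fold higher value on that array.

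The probe sets of Angptl4 differed in size. On 1417130_s_at long bone array 2 stood at 2.53 and on 1453410_at, which had the step of a level of 2 to 4, at 1.06. The _s_ marks probes shared by several transcripts. The areas were apart on the first and overlapped on the second.

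Pdgfa stood at -0.07 and -0.36 on the trabecular arrays, against 0.07 and 0.81 on the long bone arrays. Both of its probe sets had no overlap between the areas, with differences of -0.54 and -0.78, and both were highest on long bone array 2. For the gene the difference was -0.66 (95% interval -1.43 to 0.11, limma adjusted p = 0.362). It was -0.29 against long bone array 1 alone and -1.03 against long bone array 2 alone.

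Hgf, a mitogen and motility factor for endothelium and epithelium, varied little. It stood at 0.07 and 0.08 on the trabecular arrays, against 0.02 and -0.13 on the long bone arrays, and the difference was 0.13 (95% interval -0.21 to 0.46). Its 3 probe sets did not go the same way. Those named 1425379_at and 1451866_a_at were higher in both trabecular samples (0.22 and 0.28), and 1442884_at overlapped (-0.12), with long bone array 1 the highest at 0.28.

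Slit2, a secreted ligand that steers axons and endothelial cells, was set apart from both long bone arrays. It stood at -0.24 and -0.41 on trabecular arrays 1 and 2, against 0.21 and 0.57 on long bone arrays 1 and 2. Both trabecular samples were lower than both long bone samples. The difference was -0.71 (SE 0.18, 95% interval -1.18 to -0.24), a 1.63-fold lower mean in the trabecular area, with an unadjusted p of 0.0128 and an adjusted p of 0.256 in limma. It was -0.53 against long bone array 1 alone and -0.89 against long bone array 2 alone. The hybridisation controls had medians of -0.18 and -0.23 on the trabecular arrays, against 0.28 and 0.25 on the long bone arrays. The part of array scaling in the difference of Slit2 was not tested.

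All 3 Slit2 probe sets had no overlap. They differed by -0.89 (1424659_at, the one with the step of a level of 8 and above), -0.29 (1451430_at) and -0.94 (1458140_at). The last had the lowest adjusted p among the 20 probe sets, 0.197 in limma over all probe sets. On it the trabecular arrays stood at -0.48 and -0.39, against 0.39 and 0.61 on the long bone arrays.

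Slit3, which osteoblast-lineage cells are known to secrete and which supports vessels of bone, had 1 probe set and no such split. It stood at 0.14 and -0.14 on the trabecular arrays, against -0.20 and 0.56 on the long bone arrays. Only long bone array 2 was high. The difference of -0.18 (95% interval -0.96 to 0.60) was 0.20 against long bone array 1 alone and -0.56 against long bone array 2 alone.

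**Figure D3:**
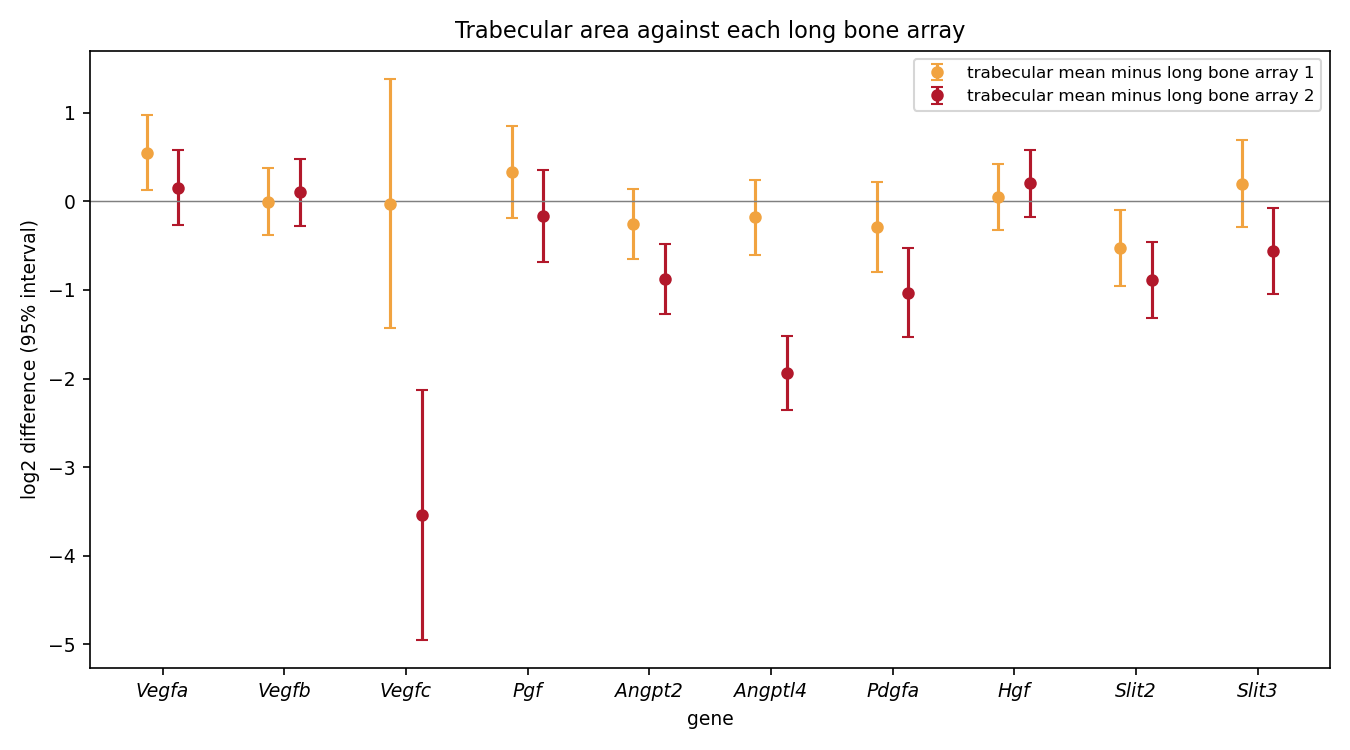
Log2 difference of the trabecular mean (2 arrays) from long bone array 1 and from long bone array 2, with 95% intervals from limma fitted without the other long bone array. The members lie between -0.53 and 0.55 against long bone array 1, and Vegfc and Angptl4 reach -3.54 and -1.93 against long bone array 2.

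With 1 long bone array at a time, the 10 genes had a median difference of -0.01 from long bone array 1 and -0.72 from long bone array 2, beside 0.05 and 0.01 over all genes. In these fits 1 array stands for the long bone area and is assumed to vary like the trabecular pair, so no calls are given. The trabecular mean was below long bone array 2 for 7 of the 10 genes and below long bone array 1 for 6. Against long bone array 2 the largest differences were those of Vegfc (-3.54), Angptl4 (-1.93), Pdgfa (-1.03), Slit2 (-0.89) and Angpt2 (-0.87). On trabecular array 1, 9 of the 10 genes stood above trabecular array 2, as did 58.7% of all genes, with Hgf as the exception.

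The receptors of these ligands and other genes of these pathways were taken from lists of known members, and no gene of any list passed the test over all genes. In each list the counts without overlap stand beside 21.4% of all genes lower and 29.9% higher in the trabecular samples. The hybridisation controls had a median difference of -0.49, and the part of array scaling in the list values was not tested. All 5 VEGF receptors and co-receptors had lower values in the trabecular area, 4 of them without overlap, and a median of -0.36. The endothelial receptors Flt1 and Kdr differed by -0.36 and -0.31 and Flt4, with overlap, by -0.11. The co-receptors Nrp1 and Nrp2 differed by -0.40 and -0.66. Of these 5 genes only Nrp2 differed by more, in size, than the median of the hybridisation controls. Nrp2, which binds Vegfc, stood at -0.23 and -0.43 on the trabecular arrays, against 0.22 and 0.44 on the long bone arrays, with a limma adjusted p of 0.247.

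The angiopoietin receptors did not follow. Tek overlapped, at 0.03 and -0.03 on the trabecular arrays, against -0.21 and 0.12 on the long bone arrays. Tie1, its partner receptor on endothelium, was higher in the trabecular area, at 0.16 and 0.36 on the trabecular arrays, against -0.16 and -0.44 on the long bone arrays, a difference of 0.56 (limma adjusted p = 0.275). The ligands Angpt1 and Angpt4 differed by -0.53 and -0.43 with no overlap, and by -0.17 and -0.21 from long bone array 1 alone. Of the further angiopoietin-like genes, Angptl6 and Angptl7 differed by -0.17 and -0.11 with no overlap.

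The PDGF group was highest on long bone array 2 throughout. All 7 genes, Pdgfa included, were lower in the trabecular area and highest on that array, 4 with no overlap, with a median difference of -0.66 (-0.29 without long bone array 2). The receptor of Pdgfa, Pdgfra, stood at -0.07 and -0.30 on the trabecular arrays, against 0.09 and 1.45 on the long bone arrays. Pdgfrb, the receptor of mural cells, stood at 0.0024 and -0.73 on the trabecular arrays, against -0.0024 and 1.90 on the long bone arrays. The receptor-like gene Pdgfrl differed by -1.20 and the ligand Pdgfc by -0.42, both with no overlap.

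The receptor of Hgf, Met, differed by -0.22 with no overlap. The Hgf list had 8 genes and was not one of activators alone. It also held the protease inhibitor genes Spint1 and Spint2 and the related ligand Mst1 with its receptor Mst1r. Of the 8, 6 were higher in the trabecular area, 5 with no overlap. Among the 6 were the protease St14 (0.37), Mst1 (0.24), the activating protease Hgfac (0.22), Spint1 (0.18) and, with overlap, Spint2 (0.51). Mst1r differed by -0.15. In the SLIT and ROBO list, 8 of 10 genes were lower, 3 with no overlap, with a median of -0.18 (-0.06 without long bone array 2). Robo1 differed by -0.30, Robo2 by -0.29 and the endothelial Robo4, with overlap, by -0.19, while Srgap2, an effector of ROBO signalling, differed by 0.24 with no overlap.

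Of 18 other angiogenic factors 14 were lower, 8 without overlap of the areas, and the median was -0.35 (-0.08 without long bone array 2). Among those without overlap the matricellular genes Ccn2 and Ccn1 had the largest differences, -3.87 and -2.07, followed by Hbegf, an EGF receptor ligand, with -0.84. From long bone array 1 alone Ccn1 differed by -1.12. Hbegf stood at -0.15 and -0.14 on the trabecular arrays, against 1.33 and 0.06 on the long bone arrays, so here long bone array 1 was the high one. The ribonuclease Ang and the gene Aggf1 were higher with no overlap, by 0.24 and 0.20. Of 14 angiogenesis inhibitors 13 were lower, 9 without overlap, and their median was -0.34 (-0.17 without long bone array 2). Cnmd, an inhibitor made by cartilage, differed by -2.77, Serpinf1, which encodes the inhibitor PEDF, by -0.76 (-0.19 from long bone array 1 alone) and the metalloproteinase inhibitor Timp3 by -0.70.

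Hypoxia response genes mostly had the sign of Vegfa. Of 24 genes 16 were higher in the trabecular area, 15 with no overlap (29.9% of all genes), with a median of 0.41. Of the 24, 18 had a probe set with the step of 8 and above, and over all genes read by such probe sets alone the median difference was 0.21, against 0.03 over all probe sets of all genes. Ddit4, a stress-induced inhibitor of mTOR signalling, stood at 0.94 and 0.46 on the trabecular arrays, against -0.46 and -0.74 on the long bone arrays (difference 1.30, limma adjusted p = 0.240). The lactate dehydrogenase gene Ldha differed by 0.62 and Hif1an, which restrains hypoxia-inducible factors, by 0.60. Other members were lower: Epas1, which encodes an oxygen-regulated factor known to be abundant in endothelium, by -1.43, and the collagen hydroxylase subunits P4ha2 and P4ha1 by -1.01 and -0.29. Epas1 stood at -0.01 and -0.72 on the trabecular arrays, against 0.01 and 2.11 on the long bone arrays. The hypoxia median was 0.34 without long bone array 2.

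**Figure D4:**
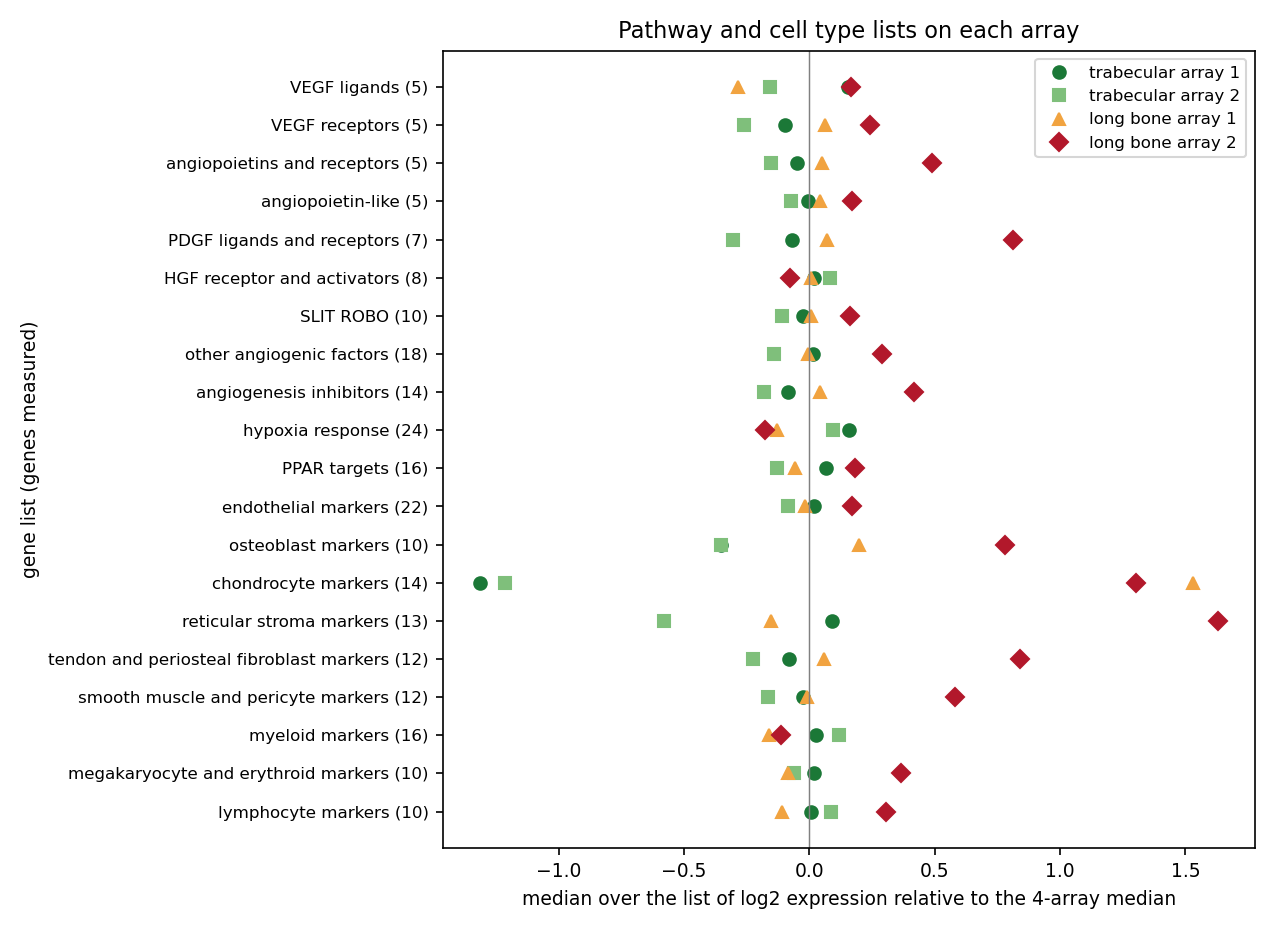
Median log2 value of each gene list on each array, relative to the median of the 4 arrays, with the number of measured genes in brackets. Reticular stroma markers stand between -0.58 and 0.09 on 3 arrays, and at 1.63 on long bone array 2.

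Cell type markers also differed between arrays. All 13 reticular stroma markers, genes of the Cxcl12-rich cells of the marrow, were highest on long bone array 2, where their median was 1.63, against 0.09 and -0.58 on trabecular arrays 1 and 2 and -0.15 on long bone array 1. On long bone array 2 tendon and periosteal fibroblast markers had a median of 0.84, and smooth muscle and pericyte markers 0.58. Their medians on long bone array 1 were 0.06 and -0.01. Chondrocyte and osteoblast markers had medians of 1.30 and 0.78 on long bone array 2, against 1.53 and 0.20 on long bone array 1. Osteoblast markers, 4 of whose 10 measured genes had a probe set with the step of 8 and above, had 10 of 10 genes lower in the trabecular area, none overlapping, with a median of -1.25. Chondrocyte markers had 14 of 14 lower and a median of -2.90. Endothelial markers had a median difference of -0.13 (-0.03 without long bone array 2). Of 22, 14 were lower and 8 higher, 6 and 2 of them with no overlap, against 21.4% and 29.9% of all genes. Pecam1, which encodes CD31, differed by -0.02. Of 16 myeloid markers 11 were higher, and the median of the 16 was 0.12. By level, 11 of the same 16 had a probe set with the step of 8 and above. The part of these cell types in the values of the growth factors was not tested. As the values carry no level, no marker can be given as absent. Of the sorting antigens, Itgav (CD51) differed by -0.13, and Ptprc (CD45) overlapped and had 1 of 2 probe sets with the step of a level of 8 and above.

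For the 3 members whose arrays spanned at least 1 log2 unit, the nearest of all genes were found by Euclidean distance over the 4 array values. Nearest to Vegfc were Id3, a helix-loop-helix inhibitor induced by BMP signals (distance 0.219), Kng1, the kininogen gene (0.234), and Ms4a4d (0.653). Nearest to Angptl4 were Tmem176a (0.147), the collagen-binding receptor Antxr1 (0.180) and the complement protease gene C1s1 (0.199). Nearest to Pdgfa were Alpl, the alkaline phosphatase of mineralising cells (0.0596), the membrane glycoprotein gene Gpm6b (0.0691) and Dnase2a (0.0851). These distances rest on 4 arrays, and the centring makes the middle arrays mirror each other in every gene with 1 probe set.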

How the data were processed

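Per the labels' protocols and the series text, total RNA of the sorted cells was amplified and, once labelled, hybridised to 1-colour arrays. A human array is named there, whereas probe set names and annotation are those of a mouse array, which was used. Per the submitters' processing notes RMA was run, without a stated version. The deposited log2 values are also centred per probe set, since the median over the 4 arrays is 0 for all 45101 probe sets. The log base is inferred from RMA.

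After removal of 64 controls, 34945 of 45037 probe sets had 1 gene, and a gene's value is the mean of its probe sets. Symbols were checked against RefSeq (GRCm38.p6, 0 changed). The trabecular minus long bone difference was fitted with limma 3.58.1 (lmFit and eBayes, R 4.3.3), with Benjamini-Hochberg adjustment over all probe sets or all genes and a call at 0.05. The fit was tested on simulated probe sets. It called 0 of 67 with a true log2 difference of 1, 10 of 67 with 2 and 35 of 66 with 4. Of the unchanged ones it called 0. A missing call is thus no evidence that a gene did not differ. Level bands were read from the number steps of the stored values and take that of the lowest array. In a test of the reading, 6.68% of probe sets at a level of 4 to 8 were misread as 8 and above.

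The 10 genes, the gene lists and the alternatives were chosen with earlier results of these data known. Named besides them are their receptors and, per pathway list and direction, up to 3 genes with the largest difference and no overlap between areas. The sorting antigens and the protease inhibitor genes of the Hgf list are named as well. Whether the replicate numbers pair the arrays is not given. Same-numbered deviations from the area means had a correlation of -0.18 over probe sets, which cannot show whether samples shared mice or pools.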

Additional observations from a re-analysis of the deposited data

How the results depend on the processing

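No growth factor changed sign in 82 gene values from alternatives that kept all 4 arrays, and 0 were called. Replicate block, crossed block, a trend in the prior variance and ordinary t statistics cannot change a difference in this balanced design. Array weights came out equal within each area and left it unchanged, so for these alternatives only the calls could change. The others were quantile normalization, subtracted array medians, the median of a gene's probe sets, and bright probe sets alone, which only 2 of the 10 have. With the replicate number as a block, 0 of the 10 genes and 0 of the 20 probe sets were called, as without it, and a crossed block, chosen after seeing the data, also called 0. Of 211 other listed genes 0 were called, against 12 with a trend and 0 to 56 with an array left out. Over all features limma called 0, against 281 probe sets and 40 genes with a trend, and 1 and 1 with ordinary t statistics. At an unadjusted p under 0.05 it called 7325 probe sets and 2811 genes.

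With an array left out, 0 to 5 growth factors were called, their median difference ran from -0.717 to -0.0141 and that of their probe sets from -0.839 to -0.058, each low end being without long bone array 1 and each high end without its partner. Of 40 such gene values 36 kept their sign. Ranges that cross 0 were -0.17 to 0.33 for Pgf, -0.0037 to 0.10 for Vegfb, -0.56 to 0.20 for Slit3, -0.12 to 0.21 for Tek and -0.24 to 0.0077 for Flt4. Per probe set they were -0.045 to 0.39 for 1420909_at (Vegfa), -0.30 to 0.054 for 1442884_at (Hgf), -4.61 to 0.044 for 1439766_x_at (Vegfc) and -1.06 to 0.075 for 1453410_at (Angptl4). Over bright probe sets alone P4ha1 was at 0.10, while the median of all genes was 0.21, against 0.03. The causes were not tested.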

Other observations

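Genes controlled by PPAR factors, of which Angptl4 is a known target, went both ways. Of 16 measured genes 6 were higher (5 without overlap) and 10 lower (4 without overlap) in the trabecular area, shares near those over all genes (29.9% and 21.4%). The median was -0.14, and 0.01 without long bone array 2. Pdk4, which curbs glucose oxidation, stood at -0.07 and -0.71 on the trabecular arrays, against 0.07 and 1.38 on the long bone arrays. Ppara and the fatty acid receptor gene Cd36 differed by -0.52 and -0.27 with no overlap, and by -0.29 and -0.12 from long bone array 1 alone. Hadha, a subunit of the mitochondrial fat-oxidising complex, differed by 0.83, and the lipid droplet genes Plin5 and Plin2 by 0.53 and 0.43. None passed the limma test over all genes. Megakaryocyte and erythroid markers had a median difference of -0.19, which was 0.10 without long bone array 2. Lymphocyte markers had a median of 0.07, which was -0.20 without long bone array 1, so both signs turned with 1 array left out.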
